A study of Arabidopsis with 14 samples.

Results

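The 9 genes described here encode enzymes and cofactors that shorten, decap and degrade mRNA. They are DCP2 (AT5G13570, chromosome 5), DCP1 (AT1G08370, chromosome 1), DCP5 (AT1G26110, chromosome 1), VCS (AT3G13300, chromosome 3), XRN4 (AT1G54490, chromosome 1), CAF1a (AT3G44260, chromosome 3), CAF1b (AT5G22250, chromosome 5), PARN (AT1G55870, chromosome 1, listed as AHG2) and UPF1 (AT5G47010, chromosome 5, listed as LBA1). They were chosen by name and role, with earlier results of these data known. All 9 were found among the 37980 rows of the deposited tables, and all 9 passed the filter on low values in every comparison. The study sequenced mRNA of whole 10-day-old Arabidopsis seedlings of the Columbia (Col-0) ecotype, grown in days of 8 h of light and 16 h of darkness, in 7 groups of 2 libraries. Libraries labelled AtC3H3 OX, AtC3H26 OX and WT came from seedlings placed on filter paper soaked in 150 mM NaCl, and the methods state for WT and AtC3H3 OX that RNA taken after 1, 2 and 4 h was combined. Untreated libraries came from AtC3H3 OX, from AtC3H26 OX and from 2 sets of WT, numbered 1 and 2, and the labels do not tie a set to a line.

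The AtC3H3 OX plants carry the coding region with an HA tag behind a modified viral 35S promoter, and homozygous progeny were used. Which of the independent lines was sequenced, and how the AtC3H26 OX plants were made, is not given in the sources used here. With NaCl, AtC3H3 was at 14.8 and 13.5 FPKM in AtC3H3 OX-labelled libraries, against 20.7 and 23.0 FPKM in WT. AtC3H26 was at 5.11 and 4.39 FPKM in AtC3H26 OX-labelled libraries, against 7.97 and 7.50 FPKM in WT. The gene named in each label was thus below WT, and the lines are called by their labels throughout. The paper selected its AtC3H3 OX lines by qRT-PCR and semi-qRT-PCR and also measured AtC3H3 by qRT-PCR with NaCl. Those measurements are separate from these libraries. FPKM counts fragments relative to the length of the transcript and to the mapped reads of the library. Relative depth, read from the steps of low FPKM values, ranged from 0.638 to 1.074 between libraries. The paper gives totals of reads and aligned pairs for the NaCl libraries of WT and AtC3H3 OX. Totals of the other libraries are not given in the sources used here. All 5 of the 5 salt marker genes examined rose in each salt comparison. Of the seedling markers, the 3 green tissue genes summed to 22724 and 20259 FPKM in untreated WT set 2 and to between 16510 and 18854 FPKM in the other 12 libraries. This sum hides single genes that moved apart with NaCl. LHCB2.1 fell in each salt comparison, in AtC3H26 OX-labelled libraries from 1990 and 2020 FPKM to 1059 and 1157 FPKM. There the mean of CAB1 rose from 8201 to 10281 FPKM, and that of RBCS1A was 6715 and 6706 FPKM. The 4 root genes summed to between 20.1 and 31.9 FPKM in the 6 libraries with NaCl, against between 34.5 and 68.4 FPKM in the 8 untreated libraries, with NRT2.1 near 0 throughout. Of these, COBL9 and PRP3 fell in each salt comparison. AGP30 fell in AtC3H3 OX-labelled libraries and in WT. In AtC3H26 OX-labelled libraries AGP30 rose, from 12.9 and 12.4 FPKM untreated to 22.2 and 22.3 FPKM with NaCl. The part of these marker differences in the salt results was not tested. In whole seedlings, fewer cells of a type and less RNA per cell cannot be told apart.

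Most cytoplasmic mRNA decay begins with the removal of the poly(A) tail. CAF1 proteins are the catalytic deadenylases of the CCR4-NOT complex, and PARN is a separate poly(A)-specific ribonuclease that in Arabidopsis acts on mitochondrial mRNA and on responses to abscisic acid. The cap is then cleaved by DCP2, which works with its activator DCP1, the scaffold VARICOSE (VCS) and the LSM14-like protein DCP5 in cytoplasmic processing bodies. XRN4 degrades the uncapped RNA from its 5′ end. UPF1 is the RNA helicase at the centre of nonsense-mediated decay, the pathway that removes mRNA with premature stop codons. In Arabidopsis, stress-activated kinases phosphorylate VCS under osmotic stress, and CAF1a and CAF1b are known as genes that respond to stress and wounding.

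FPKM values are scaled by length, and so the levels of the 9 genes can be set beside each other. In the 4 untreated WT libraries, DCP5 was highest, at 69.9 ± 3.68 FPKM (SD, n = 4, as for the next values). It was followed by UPF1 at 26.3 ± 2.22 FPKM and VCS at 25.6 ± 2.53 FPKM, whose ranges overlapped. DCP1 at 18.0 ± 1.55 FPKM and XRN4 at 16.9 ± 1.80 FPKM came next and also overlapped. CAF1a at 11.8 ± 9.20 FPKM and DCP2 at 11.5 ± 0.898 FPKM had close means, but CAF1a spread over 3.69 to 20.7 FPKM and DCP2 over 10.2 to 12.2 FPKM. PARN at 4.21 ± 0.0215 FPKM lay within the range of CAF1b, which had 3.24 ± 1.74 FPKM. The catalytic subunit DCP2 was thus listed at a lower level than each of its cofactors DCP1, VCS and DCP5. This order held in every one of the 14 libraries for DCP2 against these 3 genes.

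The spread over all 14 libraries separated the CAF1 genes from the others. The highest library exceeded the lowest 8.46-fold for CAF1a and 4.71-fold for CAF1b. For the other 7 genes this ratio ranged from 1.13 for DCP5 to 1.53 for DCP1. These ratios are a description of single libraries and were not tested.

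**Figure D1:**
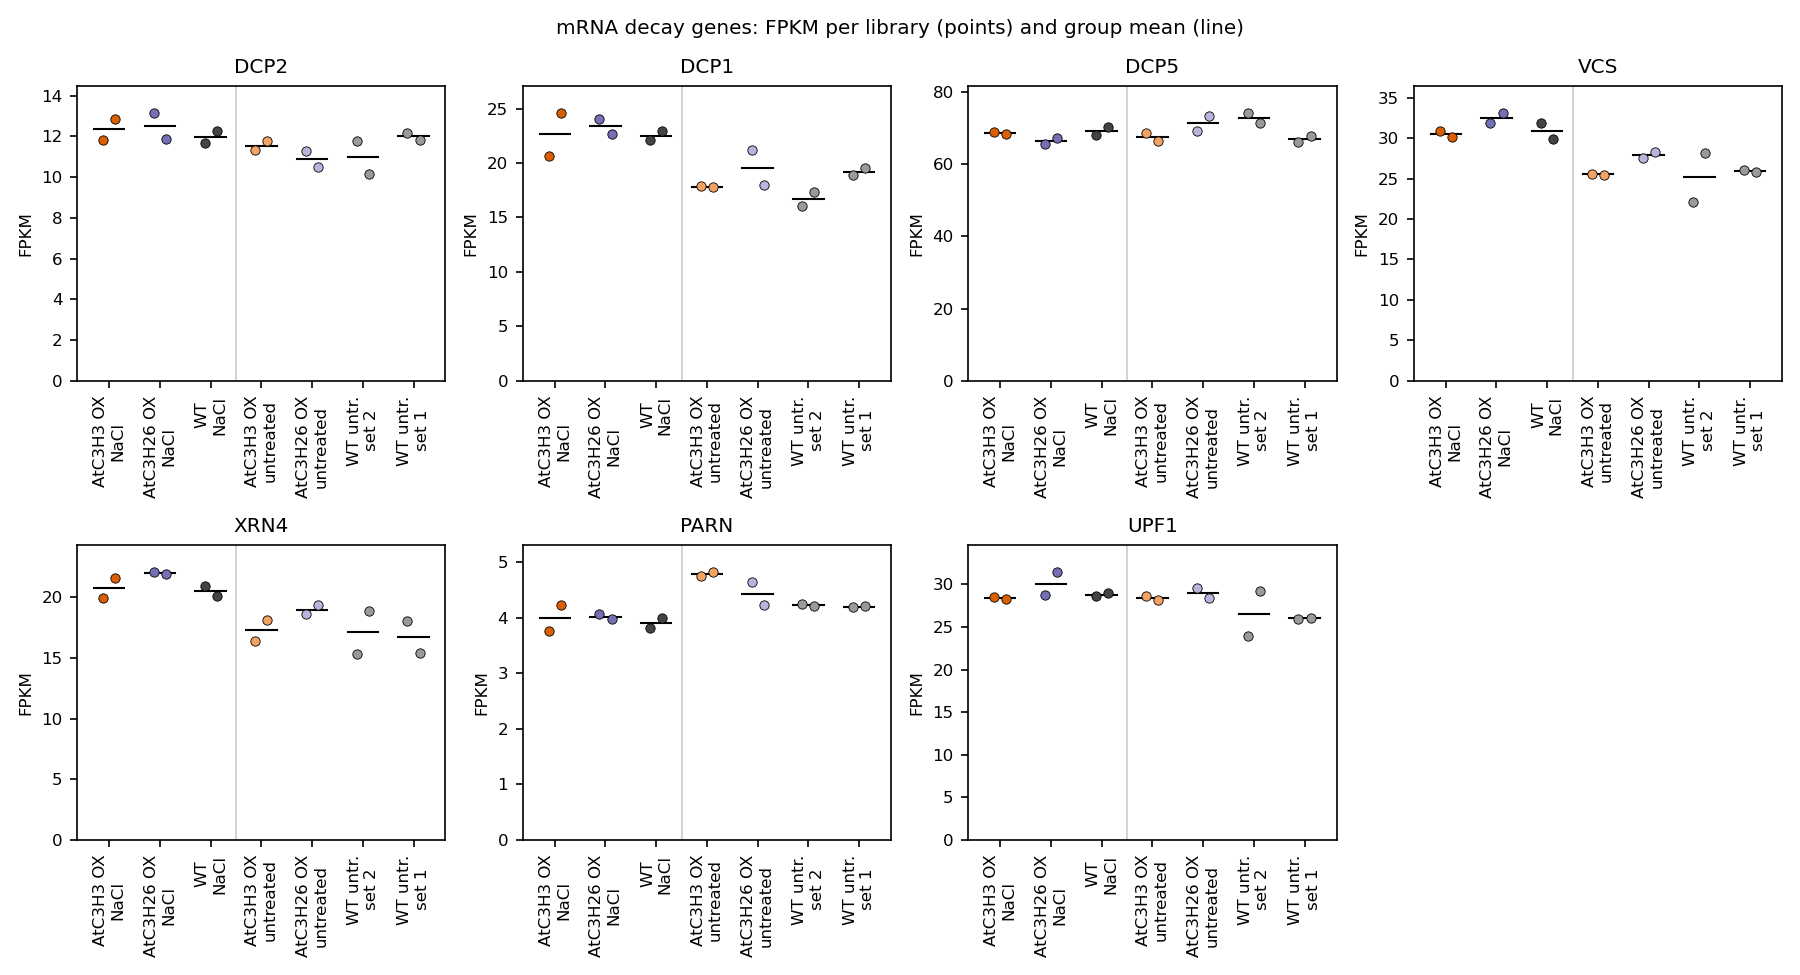
FPKM of the 7 genes other than the CAF1 deadenylases, by group. Points are libraries (2 a group), lines are group means, and the vertical line divides NaCl from untreated libraries. DCP5 lay between 65.6 and 74.2 FPKM in all 14 libraries, and DCP1, VCS and XRN4 had higher group means in each group with NaCl than in any untreated group.

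CAF1a differed most between groups of untreated seedlings. Untreated libraries labelled AtC3H3 OX held 31.2 and 28.4 FPKM and those labelled AtC3H26 OX held 7.20 and 7.39 FPKM. Untreated WT held 3.69 and 4.09 FPKM in set 2 and 18.9 and 20.7 FPKM in set 1. Thus the 4 untreated groups did not overlap, and both sets of WT lay apart from each line. Here and below, a lack of overlap is a description of single libraries, since the share of all genes without overlap was not counted. With NaCl, CAF1a was at 9.94 and 10.6 FPKM in AtC3H3 OX-labelled libraries, at 8.42 and 8.72 FPKM in those labelled AtC3H26 OX and at 9.20 and 9.54 FPKM in WT. The 6 libraries with NaCl spanned a narrower range than the untreated ones.

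The sets of untreated WT, which share genotype and age, were compared first. CAF1a was lower in set 2 than in set 1 by a log2 difference of -2.09 (standard error 0.10, adjusted p = 0.00013, limma on log2(FPKM + 1), as for all adjusted p-values). CAF1b was at 2.22 and 1.32 FPKM in set 2, against 4.70 and 4.73 FPKM in set 1, a log2 difference of -1.06 (standard error 0.18, adjusted p = 0.017). Without the filter on low values, the adjusted p of CAF1b was 0.064. Of the 9 genes, these 2 were lower in set 2 and none was higher. Among all 19783 genes tested, 7.32% were lower and 2.81% higher in set 2. The log2 differences of the other 7 genes lay between -0.19 and 0.12. Tissue markers also differed between the sets. The green tissue genes summed to 22724 and 20259 FPKM in set 2, against 17390 and 17887 FPKM in set 1, with 0 of 3 called and 2 at an unadjusted p under 0.05. The root genes summed to 66.9 and 68.4 FPKM, against 55.4 and 60.4 FPKM, with 1 of 3 tested called, AGP30. The part of these differences in the CAF1 values was not tested. None of the 58 other decay genes tested was called between the sets. Of them, 6 had an unadjusted p under 0.05, beside 5114 of all 19783 genes tested.

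A list of 10 genes that respond quickly to touch and wounding (TCH2, TCH3, TCH4, CML38, WRKY33, WRKY40, ERF5, ERF104, ZAT10 and ZAT12) was read in the same libraries. All 10 were lower in set 2 than in set 1, with a median log2 difference of -2.63 and a range of -4.22 to -1.01. The list was chosen with earlier results of these libraries known, so that its direction is a description and not independent evidence. Their summed FPKM was 60.4 and 55.9 in set 2, against 456 and 467 in set 1. It was 466 and 477 in untreated libraries labelled AtC3H3 OX and 135 and 139 in those labelled AtC3H26 OX. The order of the 4 untreated groups by the mean of this sum was the order of their CAF1a levels. However, the sums of set 1 and of untreated AtC3H3 OX-labelled libraries overlapped, whereas the CAF1a values of these 2 groups did not. With NaCl, the sum ranged from 394 to 514 in the 6 libraries, where CAF1a was between 8.42 and 10.6 FPKM. The sum does not show single genes. In AtC3H3 OX-labelled libraries 5 of the 10 rose with NaCl and 5 fell, beside 31.4% and 29.9% of all genes tested. There TCH4 fell from a mean of 74.2 to 20.5 FPKM, and ZAT10 rose from 34.1 to 54.3 FPKM. Similar sums with and without NaCl thus held different levels of single genes. The part of touch or handling in the CAF1 values was not tested.

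**Figure D2:**
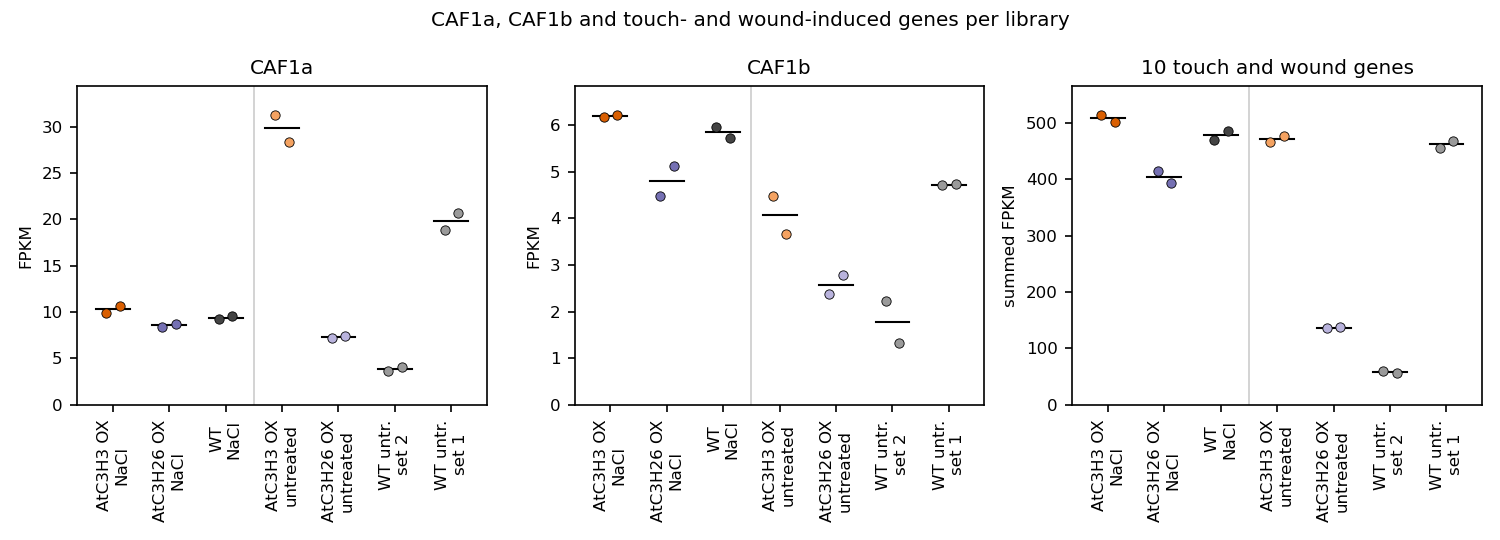
CAF1a, CAF1b and the summed FPKM of 10 touch- and wound-induced genes, by group. Points are libraries (2 a group) and lines are group means. Untreated CAF1a ranged from 3.69 FPKM in WT set 2 to 31.2 FPKM in a library labelled AtC3H3 OX, and the 6 libraries with NaCl lay between 8.42 and 10.6 FPKM.

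The salt response of CAF1a therefore depended on the untreated libraries. In AtC3H3 OX-labelled libraries it fell with NaCl, by a log2 difference of -1.45 (standard error 0.07, adjusted p = 2.3e-05). Within AtC3H26 OX-labelled libraries the log2 difference was 0.21 (standard error 0.08, adjusted p = 0.074). In WT it was 0.04 (standard error 0.70, adjusted p = 0.97) against all 4 untreated libraries. Against set 2 alone CAF1a was higher in WT with NaCl, by 1.09 (standard error 0.10, adjusted p = 0.00036). Against set 1 alone it was lower, by -1.0 (standard error 0.07, adjusted p = 8.5e-05). The direction of the WT response was thus opposite for the 2 sets.

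CAF1b had higher values with NaCl than without in each line, without overlap. The libraries labelled AtC3H3 OX held 6.16 and 6.21 FPKM with NaCl, against 4.48 and 3.67 FPKM untreated, a log2 difference of 0.51 (standard error 0.11, adjusted p = 0.0096). Those labelled AtC3H26 OX held 4.48 and 5.11 FPKM, against 2.37 and 2.79 FPKM, a log2 difference of 0.70 (standard error 0.12, adjusted p = 0.0056). WT held 5.97 and 5.71 FPKM with NaCl, above all 4 untreated libraries, and the log2 difference was 0.79 (standard error 0.38, adjusted p = 0.13). Against set 2 alone it was 1.32 (adjusted p = 0.0016) and against set 1 alone 0.26 (adjusted p = 0.045). Both calls in the lines were kept in all 11 alternative settings. CAF1a and CAF1b thus differed in direction in AtC3H3 OX-labelled libraries.

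The comparison of each line with untreated WT shifted in the same way. CAF1a was higher in untreated libraries labelled AtC3H3 OX than in WT by 1.61 on the log2 scale (standard error 0.70, adjusted p = 0.51), with both libraries above all 4 of WT. It was higher by 2.65 (adjusted p = 4.2e-05) against set 2 alone and by 0.57 (adjusted p = 0.022) against set 1 alone, where 14.3% and 2.46% of all genes tested were called. For AtC3H26 OX-labelled libraries the log2 difference was -0.28 (standard error 0.69, adjusted p = 0.88) against all 4. It was 0.76 (adjusted p = 0.0096) against set 2 alone and -1.32 (adjusted p = 0.00062) against set 1 alone. CAF1b likewise differed by 0.89 (adjusted p = 0.030) and -0.18 (adjusted p = 0.48) for AtC3H3 OX-labelled libraries, and by 0.39 (adjusted p = 0.27) and -0.68 (adjusted p = 0.020) for those labelled AtC3H26 OX, against set 2 and set 1. Both lines were compared with the same WT libraries, so these differences are not independent of each other.

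**Figure D3:**
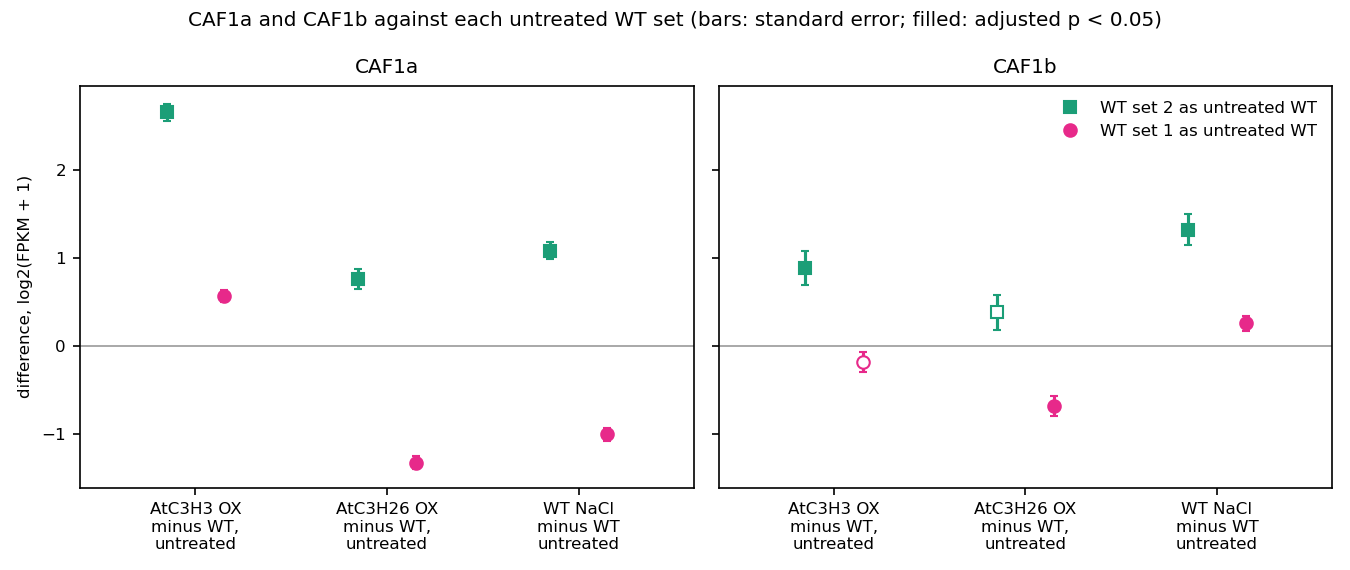
Log2 differences of CAF1a and CAF1b for each line against untreated WT and for the WT salt response, with set 2 or set 1 as the untreated WT libraries (2 against 2). Bars are standard errors and filled symbols have an adjusted p under 0.05. For CAF1a, the difference changed sign between the sets for AtC3H26 OX-labelled libraries (0.76 and -1.32) and for the WT salt response (1.09 and -1.0).

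The decapping activator DCP1, the scaffold VCS and the exonuclease XRN4 had modestly higher values with NaCl. DCP1 was at 20.7 and 24.6 FPKM in AtC3H3 OX-labelled libraries with NaCl, against 17.9 and 17.8 FPKM untreated. It was at 24.1 and 22.7 FPKM in those labelled AtC3H26 OX, against 21.2 and 18.0 FPKM. WT held 22.1 and 22.9 FPKM, against 16.1 and 17.4 FPKM in set 2 and 18.9 and 19.6 FPKM in set 1. No library with NaCl overlapped with the untreated libraries of its own genotype. DCP1 rose in AtC3H3 OX-labelled libraries by 0.32 (standard error 0.09, adjusted p = 0.020) and in WT by 0.31 (standard error 0.09, adjusted p = 0.025). The log2 difference in AtC3H26 OX-labelled libraries was 0.25 (standard error 0.09, adjusted p = 0.064).

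VCS was at 30.9 and 30.1 FPKM in AtC3H3 OX-labelled libraries with NaCl, against 25.6 and 25.5 FPKM untreated. Those labelled AtC3H26 OX held 31.9 and 33.1 FPKM, against 27.5 and 28.2 FPKM. WT held 31.8 and 29.8 FPKM, against 22.1 and 28.2 FPKM in set 2 and 26.1 and 25.9 FPKM in set 1. VCS rose by 0.25 (standard error 0.05, adjusted p = 0.0051) in AtC3H3 OX-labelled libraries and by 0.21 (standard error 0.05, adjusted p = 0.020) in those labelled AtC3H26 OX. In WT the log2 difference was 0.27 (standard error 0.10, adjusted p = 0.064), with both libraries with NaCl above all 4 untreated ones. Replicate 1 of set 2 had the lowest of all VCS values. VCS lies next to its near-identical copy VCR, and the sharing of reads between them is not given in the sources used here, so that their split is uncertain. VCR went the other way in WT, at 6.37 and 6.42 FPKM with NaCl, against 8.06 and 8.84 FPKM in set 2 and 7.64 and 8.19 FPKM in set 1 (log2 difference -0.31, standard error 0.08, adjusted p = 0.018). VCR was also lower with NaCl in both lines, where VCS was called higher. It was at 6.79 and 7.16 FPKM, against 7.65 and 7.71 FPKM untreated, in AtC3H3 OX-labelled libraries. Those labelled AtC3H26 OX held 6.84 and 7.03 FPKM, against 7.70 and 8.34 FPKM. The uncertain split thus also bears on the calls of VCS.

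XRN4 was at 19.9 and 21.6 FPKM in AtC3H3 OX-labelled libraries with NaCl, against 16.4 and 18.1 FPKM untreated, and rose by 0.25 (standard error 0.07, adjusted p = 0.026). It was at 22.1 and 21.9 FPKM in those labelled AtC3H26 OX, against 18.6 and 19.3 FPKM, and rose by 0.20 (standard error 0.06, adjusted p = 0.030). In WT it was at 20.9 and 20.1 FPKM, against 15.3 and 18.9 FPKM in set 2 and 18.1 and 15.4 FPKM in set 1. The log2 difference in WT was 0.27 (standard error 0.10, adjusted p = 0.067). The untreated WT replicates of XRN4 differed from each other within both sets.

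DCP2 and DCP5, the catalytic subunit and the LSM14-like cofactor, passed the test in none of the salt comparisons. DCP2 was between 11.7 and 13.2 FPKM in the 6 libraries with NaCl, against between 10.2 and 12.2 FPKM in the 8 untreated libraries. Its log2 difference was 0.09 (adjusted p = 0.33) in AtC3H3 OX-labelled libraries, 0.18 (adjusted p = 0.11) in those labelled AtC3H26 OX and 0.06 (adjusted p = 0.63) in WT. DCP5 was between 65.6 and 70.3 FPKM with NaCl, against between 66.0 and 74.2 FPKM untreated. Its log2 difference was 0.02 (adjusted p = 0.59), -0.10 (adjusted p = 0.15) and -0.01 (adjusted p = 0.89) in the same order of comparisons. The 95% interval of the WT difference ran from -0.16 to 0.27 for DCP2 and from -0.17 to 0.15 for DCP5. Under quantile normalization, DCP5 was called lower in both lines, by -0.11 (adjusted p = 0.047) in AtC3H3 OX-labelled libraries and by -0.27 (adjusted p = 0.0086) in those labelled AtC3H26 OX.

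PARN and UPF1 also passed no test. PARN was at 3.76 and 4.22 FPKM in AtC3H3 OX-labelled libraries with NaCl, against 4.74 and 4.82 FPKM untreated (log2 difference -0.21, standard error 0.10, adjusted p = 0.12). Its log2 difference was -0.11 (adjusted p = 0.39) in those labelled AtC3H26 OX and -0.09 (adjusted p = 0.41) in WT. In AtC3H3 OX-labelled libraries PARN was called lower in 2 of 11 alternative settings. These were upper quartile scaling (-0.31, adjusted p = 0.040) and all 14 libraries in one fit. In all 3 genotypes each library with NaCl lay below each untreated library of that genotype, but the share of all genes without overlap was not counted. PARN overlaps its neighbour AT1G55880 in the RefSeq annotation, and the strand setting of the counting is not given in the sources used here. UPF1 was between 28.2 and 31.5 FPKM with NaCl, against between 23.9 and 29.6 FPKM untreated. Its log2 difference was 0.00091 (adjusted p = 0.99) in AtC3H3 OX-labelled libraries, 0.05 (adjusted p = 0.56) in those labelled AtC3H26 OX and 0.13 (adjusted p = 0.24) in WT, where set 1 alone gave 0.14 (adjusted p = 0.036).

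Counted over the 9 genes, 4 rose and 1 fell with NaCl in AtC3H3 OX-labelled libraries, where 31.4% of all 19976 genes tested rose and 29.9% fell. In AtC3H26 OX-labelled libraries, 3 rose and 0 fell, where 29.2% of 20055 genes rose and 26.4% fell. The unadjusted p was under 0.05 for 5 of the 9 in each line. Over all genes tested, it was under 0.05 for 13113 of 19976 and for 12324 of 20055. In WT, 1 rose and 0 fell, where 25.6% of 20436 genes rose and 25.5% fell. There 3 of the 9 had an unadjusted p under 0.05, beside 11735 of the 20436. With set 2 alone as untreated WT, 3 rose and 0 fell, where 28.8% of all genes tested rose and 25.9% fell. With set 1 alone 5 rose and 1 fell, where 30.2% rose and 33.2% fell. The median log2 difference of the 9 was 0.09, 0.20 and 0.13 in the same order of comparisons, beside -0.0018, 0.0034 and -0.02 over all genes tested. None of the 9 was called in the same direction in all 3. The comparisons of each line use separate libraries from those of WT.

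These small differences depended on the scaling. Under quantile normalization, 1 rose and 2 fell in AtC3H3 OX-labelled libraries, where 27% of all genes tested rose and 35.1% fell. In those labelled AtC3H26 OX 1 rose and 1 fell, beside 24.9% and 31.1% of all genes. In WT 0 rose and 0 fell, beside 22% and 30.1% of all genes. Upper quartile scaling moved the median of all genes in AtC3H3 OX-labelled libraries to -0.10, and 2 of the 9 genes rose and 2 fell there, beside 25.7% and 37.4% of all genes. DCP1, VCS and XRN4 remained above 0 in each of these settings. Leaving out single libraries ended further calls. The call of DCP1 in WT was lost without replicate 1 (adjusted p = 0.10) or replicate 2 (adjusted p = 0.15) of WT with NaCl. In AtC3H3 OX-labelled libraries, that of DCP1 was lost without untreated replicate 1 (adjusted p = 0.058) or 2 (adjusted p = 0.060), and that of XRN4 without replicate 2 with NaCl (adjusted p = 0.096) or untreated replicate 1 (adjusted p = 0.13). In AtC3H26 OX-labelled libraries, the calls of VCS and XRN4 were lost when any of the 4 libraries was left out, with adjusted p between 0.050 and 0.11. They were also lost with all 14 libraries in one fit (adjusted p = 0.051 and 0.088) and under both scalings. NaCl, the transfer to filter paper and the time after it cannot be told apart in these comparisons.

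**Figure D4:**
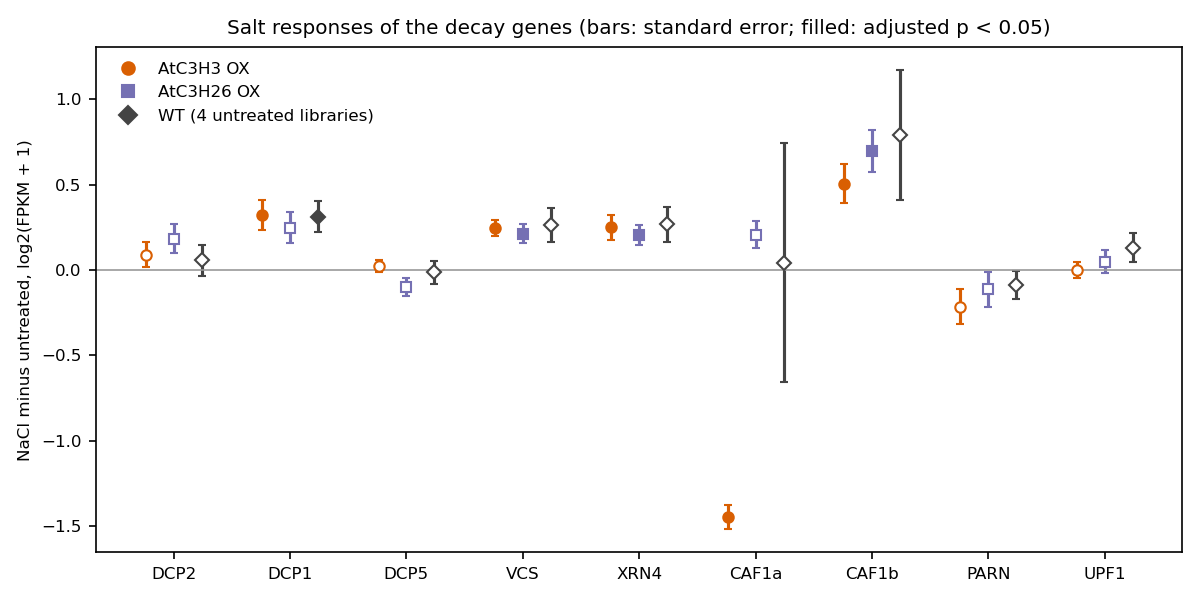
Salt responses of the 9 genes as NaCl minus untreated on the log2(FPKM + 1) scale. Bars are standard errors and filled symbols have an adjusted p under 0.05 (2 libraries against 2 in each line, 2 against 4 in WT). CAF1a was at -1.45 in AtC3H3 OX-labelled libraries and near 0 in WT with a standard error of 0.70, while DCP1, VCS and XRN4 lay between 0.20 and 0.32 in all 3.

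With NaCl, the lines and WT were close in all 9 genes. None was called in AtC3H3 OX-labelled libraries against WT, where 2.67% of all genes tested were called, or in those labelled AtC3H26 OX against WT, where 7.09% were called. The unadjusted p was under 0.05 for 0 of the 9 in both comparisons, beside 3612 of 19642 and 4754 of 19670 genes tested. No tool other than limma was run. The log2 differences ranged from -0.02 to 0.12 for AtC3H3 OX-labelled libraries and from -0.24 to 0.10 for those labelled AtC3H26 OX. CAF1a differed by 0.12 (95% interval -0.07 to 0.31) and by -0.12 (95% interval -0.30 to 0.07) in the same order. CAF1b differed by 0.07 (95% interval -0.15 to 0.29) and by -0.24 (95% interval -0.49 to 0.01). For both CAF1 genes, AtC3H3 OX-labelled libraries lay above and those labelled AtC3H26 OX lay below both WT libraries. The adjusted p of these differences lay between 0.22 and 0.74, and the share of all genes without overlap was not counted. These comparisons share the WT libraries with NaCl.

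Without NaCl, none of the 9 genes was called against all 4 WT libraries in either line. The share of all genes called was 0.0449% for AtC3H3 OX-labelled libraries and 1.65% for those labelled AtC3H26 OX. In both, 0 of the 9 had an unadjusted p under 0.05, beside 2032 of 20056 and 3158 of 20174 genes tested. Apart from CAF1a and CAF1b, the log2 differences lay between -0.05 and 0.15 for AtC3H3 OX-labelled libraries and between -0.07 and 0.16 for those labelled AtC3H26 OX. The difference in salt response between a line and WT was also called for none of the 9, where 0.0769% and 1.42% of all genes tested were called. Again, 0 of the 9 had an unadjusted p under 0.05, beside 2043 of 20797 and 3105 of 20878 genes tested. For CAF1a this difference was -1.49 (adjusted p = 0.65) for AtC3H3 OX-labelled libraries and 0.16 (adjusted p = 0.96) for those labelled AtC3H26 OX. With set 2 alone it was -2.53 (adjusted p = 2.1e-05) and -0.88 (adjusted p = 0.0050), and with set 1 alone -0.45 (adjusted p = 0.068) and 1.21 (adjusted p = 0.00055).

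The other genes of mRNA decay were taken as 6 lists of 63 genes. With NaCl, 16 rose and 19 fell of 60 tested in AtC3H3 OX-labelled libraries, beside 31.4% and 29.9% of all genes tested. In those labelled AtC3H26 OX, 16 rose and 12 fell of 59, beside 29.2% and 26.4% of all genes. In WT 14 rose and 10 fell of 59, beside 25.6% and 25.5% of all genes. Their medians were -0.03, -0.03 and 0.03, close to those of all genes. Under quantile normalization the counts were 10 and 28, 13 and 20, and 10 and 17, so that more fell than rose in all 3, as among all genes tested. Of the 59 tested in all 3 salt comparisons, 12 (20.3%) rose and 5 (8.47%) fell in each of them, beside 20.9% and 17.4% of the 19548 genes tested in all 3. None was called in any comparison of a line with WT, between the WT sets or in the difference of salt responses. In these, 0 to 8 of those tested had an unadjusted p under 0.05, beside 2032 to 5114 of all genes tested.

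In the list of nonsense-mediated decay, UPF3, a cofactor of UPF1 that binds exon junctions, rose in each salt comparison. It was at 26.8 and 25.4 FPKM in AtC3H3 OX-labelled libraries with NaCl, against 16.1 and 16.8 FPKM untreated, a log2 difference of 0.63 (standard error 0.06, adjusted p = 0.00026). Those labelled AtC3H26 OX held 22.7 and 23.0 FPKM, against 17.2 and 15.5 FPKM, a log2 difference of 0.46 (standard error 0.07, adjusted p = 0.0033). WT held 28.1 and 26.4 FPKM, against 15.1 and 16.2 FPKM in set 2 and 15.8 and 15.7 FPKM in set 1, a log2 difference of 0.76 (standard error 0.07, adjusted p = 0.00014). Every library with NaCl lay above every untreated library. The calls of UPF3 were kept under quantile and upper quartile scaling and, in WT, against each set alone. UPF1 itself did not pass the test, as given above.

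The largest salt response among the decay genes was that of SOV, a 3′ to 5′ exoribonuclease of the DIS3L2 type that was found as a suppressor of varicose and is defective in the Col-0 ecotype. SOV was at 34.7 and 35.0 FPKM in AtC3H3 OX-labelled libraries with NaCl, against 8.24 and 7.66 FPKM untreated. Those labelled AtC3H26 OX held 29.1 and 29.0 FPKM, against 9.54 and 9.67 FPKM. WT held 32.6 and 30.5 FPKM, against 8.55 and 8.73 FPKM in set 2 and 8.55 and 7.88 FPKM in set 1. Every library with NaCl lay above every untreated library. The log2 differences were 2.00 (standard error 0.06, adjusted p = 4.0e-06), 1.50 (standard error 0.06, adjusted p = 2.6e-05) and 1.79 (standard error 0.07, adjusted p = 6.1e-06). In the rest of the list of exosome and SKI genes, PELOTA, which acts on stalled ribosomes, rose in all 3 comparisons and RRP41L, a relative of an exosome subunit, fell. The list counted 3 higher and 8 lower of 17, 3 higher and 4 lower, and 2 higher and 3 lower in the same order. Over all genes tested the shares were 31.4% and 29.9%, 29.2% and 26.4%, and 25.6% and 25.5%.

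The deadenylation list held genes that moved in both directions. In AtC3H3 OX-labelled libraries, 4 of 15 tested rose and 6 fell, beside 31.4% and 29.9% of all genes tested. In those labelled AtC3H26 OX 4 of 14 rose and 3 fell, beside 29.2% and 26.4% of all genes. In WT 4 of 14 rose and 1 fell, beside 25.6% and 25.5% of all genes. CAF1-2, another gene of the CAF1 family, rose in all 3 comparisons, with 13.2 and 15.2 FPKM in AtC3H3 OX-labelled libraries with NaCl, against 9.28 and 9.32 FPKM untreated. NOT9B, a subunit of the CCR4-NOT complex, also rose in all 3, by 0.48, 0.56 and 0.43. CCR4a, the other catalytic type of the complex, fell in all 3. It was at 24.4 and 23.5 FPKM in AtC3H3 OX-labelled libraries with NaCl, against 32.9 and 34.0 FPKM untreated, a log2 difference of -0.46 (standard error 0.05, adjusted p = 0.00050). The genes of the list that were not tested were CAF1 family members with fewer than 2 libraries at 1 FPKM.

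In the decapping list, 4 of 19 rose and 4 fell in each line, and 3 rose and 5 fell in WT. Of all genes tested, 31.4% and 29.2% rose and 29.9% and 26.4% fell in AtC3H3 OX-labelled and AtC3H26 OX-labelled libraries. In WT 25.6% rose and 25.5% fell. LSM5, a subunit of the LSM ring that activates decapping in the cytoplasm and takes part in splicing in the nucleus, fell in all 3, by -0.75, -0.54 and -0.54. RH6, a DEAD-box helicase of processing bodies, fell by -0.33, -0.43 and -0.41. PATH2, a homologue of the decapping activator PAT1, rose by 0.56, 0.36 and 0.49. The 2 uridylyltransferases that tail deadenylated RNA moved apart: URT1 rose by 0.41, 0.40 and 0.31, and HESO1 fell by -0.43, -0.55 and -0.58. FRY1, the nucleotidase that clears an inhibitor of XRN enzymes, rose by 0.42, 0.26 and 0.32, but was not called under quantile normalization in AtC3H26 OX-labelled libraries (adjusted p = 0.29) or in WT (adjusted p = 0.098). URT1 in WT was likewise not called there (adjusted p = 0.095).

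**Figure D5:**
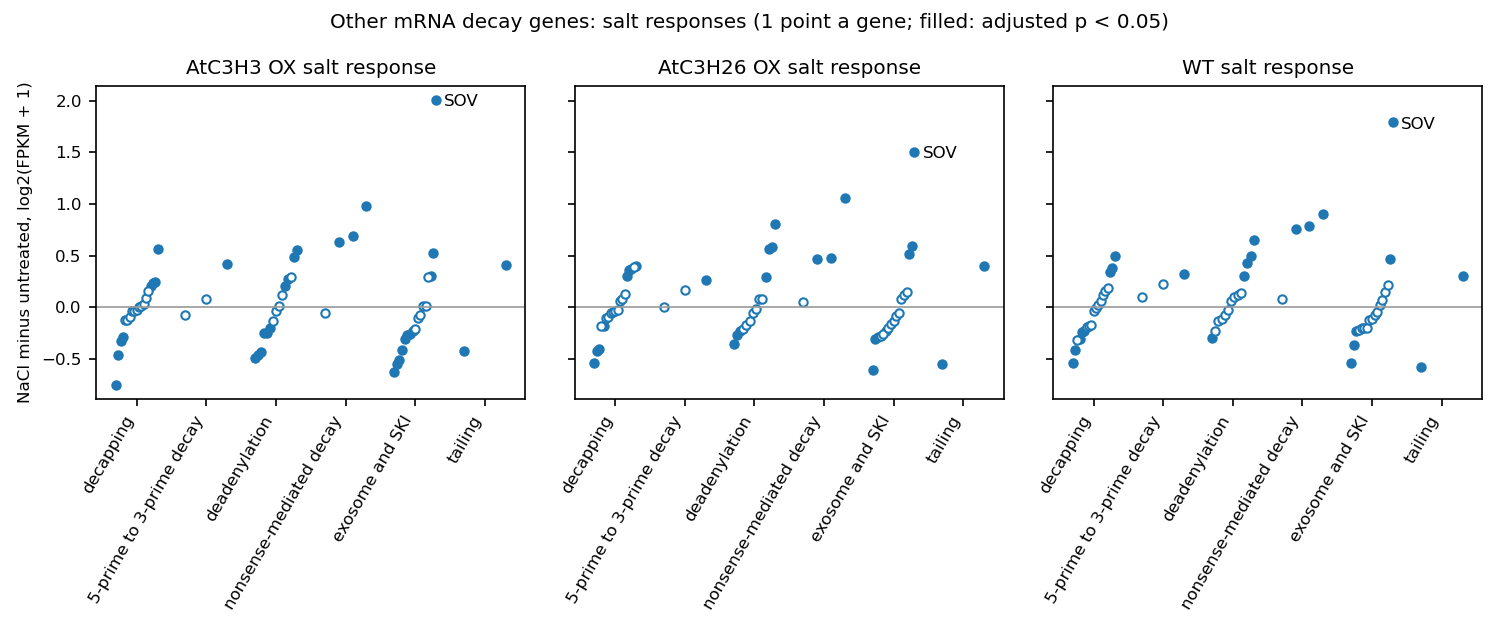
Salt responses of the other decay genes by list, as NaCl minus untreated on the log2(FPKM + 1) scale. Each point is a gene and filled points have an adjusted p under 0.05. SOV stood highest in each panel, at 2.00, 1.50 and 1.79.

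Over the 14 libraries, each of the 9 genes was set against 19531 genes that reached 1 FPKM in 7 or more libraries, by Pearson's r of log2(FPKM + 1). The libraries share groups and preparation, and so these values are a description. CAF1a was most like DIC2 (r = 0.98), a mitochondrial dicarboxylate carrier, ERF105 (r = 0.97), an ethylene response factor, and AT4G27280 (r = 0.97). CAF1b was most like AT1G74840 (r = 0.97), BT1 (r = 0.97), a BTB and TAZ domain protein, and AT5G60680 (r = 0.97). Between CAF1a and CAF1b r was 0.49. The genes most like the other members were AT1G49050, SEH1H and U2B'' for DCP1 (r from 0.93 to 0.94), ARF3 (AT2G24765), AT4G00170 and AT3G01430 for DCP2 (r from 0.87 to 0.92), and GLK2, AT1G11800 and AT4G26540 for DCP5 (r from 0.84 to 0.87). They were AT3G60860, AT5G24350 and ARF6 for VCS (r = 0.98), AT1G08825, AT3G19780 and AT5G58410 for XRN4 (r from 0.94 to 0.95), AT4G39420, MOS14 and UPL2 for UPF1 (r from 0.92 to 0.96), and AT3G56010, BBX18 and AT3G02832 for PARN (r from 0.87 to 0.89). Among the 9 genes, VCS and XRN4 were most alike (r = 0.92).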

How the data were processed

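The authors trimmed reads by quality and adapter, mapped them with TopHat to the TAIR10 genome and estimated FPKM with Cufflinks. The deposited columns were read as FPKM before quantile normalization, since the upper quartiles of their values above 0 ranged from 18.2 to 20.2 FPKM. Which step they hold is not given in the sources used here. Of 37980 rows, 97.92% were matched by name to RefSeq loci (TAIR10.1), and 218 rows without a name were all at 0. Replicates correlated at r from 0.977 to 0.982.

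Differences of log2(FPKM + 1) were tested two-sided with limma 3.58.1 (trend, R 4.3.3) on the libraries of each comparison, over all genes that reached 1 FPKM in 2 or more of them. A gene was called at a Benjamini-Hochberg adjusted p under 0.05. Both untreated WT sets were pooled. The difference understates changes of genes near 1 FPKM. The error behind each p-value is the spread between replicates, moderated by limma towards the spread of other genes at a similar level. Where the WT sets are pooled, it also holds the gap between the sets. No read counts were used, so no count-based interval is given. The share of all genes whose groups did not overlap was not counted, so that a lack of overlap is a description.

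The 9 genes and all lists were chosen with earlier results of these data known. The text names all 9 genes in each comparison, at most 3 called genes of a pathway list in each comparison, and 3 most similar genes for each of the 9. VCR was added as the neighbour of VCS. RAB18 and TIP2;3 of the marker lists were not matched. Some genes of the pathway lists are counted but not reported by name here. Alternatives were no filter, 1 FPKM in every library, a pseudocount of 0.1, quantile and upper quartile scaling, all 14 libraries in one fit, a replicate block, each WT set alone and leaving out each library.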

Additional observations from a re-analysis of the deposited data

How the results depend on the processing

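With NaCl, the calls of CAF1a in AtC3H3 OX-labelled libraries and of CAF1b in both lines were kept in all 11 alternatives, as was that of CAF1a between the WT sets. Leaving out the filter on low values left 1 of the 9 genes lower in WT set 2. Replicate numbers did not pair the libraries (r of deviations from -0.085 to 0.092 over 21 pairs of groups). With the replicate block, 4 of the 9 genes rose in AtC3H26 OX-labelled libraries instead of 3, DCP1 being added (log2 difference 0.25, adjusted p = 0.032), and no other call on the 9 genes changed.

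Quantile normalization gave 0 genes higher in WT with NaCl, 1 higher and 2 lower in AtC3H3 OX-labelled libraries, and 1 higher and 1 lower in AtC3H26 OX-labelled libraries. Upper quartile scaling gave 2 higher and 2 lower, and 1 higher and 1 lower, in these lines. Directions reversed under these scalings, in that order, for DCP2 in WT (-0.027 and -0.032), CAF1a in WT (-0.024 and -0.040), DCP5 (-0.11 and -0.089) and UPF1 (-0.11 and -0.11) in AtC3H3 OX-labelled libraries, UPF1 in AtC3H26 OX-labelled libraries (-0.089 and -0.042) and VCS between WT sets (0.028 and 0.011). DCP2 in AtC3H3 OX-labelled libraries reversed under upper quartile scaling (-0.017).

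All 14 libraries in one fit gave 4 genes higher in WT with NaCl and 2 lower in AtC3H3 OX-labelled libraries, where 31.9% and 30.1% of all genes tested were called in these directions. It gave 1 higher in untreated AtC3H3 OX-labelled libraries than in WT, 1 lower in those labelled AtC3H26 OX and 1 lower for the AtC3H3 OX difference in salt response, beside 6.44%, 11% and 2.99% of all genes.

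WT set 2 alone gave 3 genes higher in WT with NaCl, 2 higher and 1 higher in untreated libraries of AtC3H3 OX and AtC3H26 OX, and 1 lower for each difference in salt response, beside 28.8%, 8.46%, 5.07%, 6.51% and 5.01% of all genes. Here CAF1a (0.76) and CAF1b (0.39) reversed in AtC3H26 OX-labelled libraries, as did CAF1a in the AtC3H26 OX difference in salt response (-0.88). WT set 1 alone gave 5 higher and 1 lower in WT with NaCl, 1 higher in untreated AtC3H3 OX-labelled libraries, 2 lower in those labelled AtC3H26 OX and 1 higher for the AtC3H26 OX difference in salt response, beside 30.2%, 33.2%, 0.864%, 8.62% and 6.48% of all genes. Here DCP2 (-0.0051), DCP5 (0.048) and CAF1a (-1.0) reversed in WT, CAF1b in untreated AtC3H3 OX-labelled libraries (-0.18), and CAF1b in the differences in salt response (0.25 for AtC3H3 OX and 0.44 for AtC3H26 OX).

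Leaving out 1 library at a time gave 0 to 3 genes higher in WT with NaCl (0 without either replicate of WT with NaCl, 3 without replicate 2 of untreated set 2), 2 to 4 higher in AtC3H3 OX-labelled libraries (2 without untreated replicate 1) and 1 to 2 higher in those labelled AtC3H26 OX. Values that crossed 0, none of them called, were DCP5 (-0.039 to 0.016) and CAF1a (-0.32 to 0.41) in WT with NaCl, and UPF1 in AtC3H3 OX-labelled (-0.010 to 0.012) and AtC3H26 OX-labelled libraries (-0.015 to 0.11). For untreated AtC3H26 OX-labelled libraries against WT they were CAF1a (-0.65 to 0.089) and CAF1b (-0.40 to 0.032), and for the AtC3H26 OX difference in salt response CAF1a (-0.21 to 0.53) and CAF1b (-0.27 to 0.16). Between the WT sets they were VCS (-0.22 to 0.11), XRN4 (-0.12 to 0.17) and UPF1 (-0.12 to 0.16).

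The cause of these changes was not tested. The number of fragments behind each value is unknown, and 2 libraries a group limit the precision.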
